A study of Mus musculus with 64 samples.

Results

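Basement membranes are thin sheets of matrix on which epithelia rest, built from laminin and collagen networks that nidogens, perlecan and agrin join together, and cells hold on to them through integrins and dystroglycan. The genes described here are the mouse genes whose symbols name an integrin alpha or beta chain or a laminin alpha, beta or gamma chain by number, plus Itgav, Nid1, Nid2, Hspg2, Agrn, Fn1, Dag1 and Tnc. Of 38 such genes, 33 have a probe set on the array, out of 12393 genes with one, and the other 5 were not analysed here. The 33 are 9 integrin alpha chains, 7 integrin beta chains, 10 laminin chains and 7 others, and 25 of them passed the filter on low signals described next. A gene passed when at least 2 of the 64 arrays reached the median of their own array, and it was then represented by its passing probe set with the highest mean. The 8 that did not pass are Itga5, Itga7, Itgb2, Itgb3, Itgb4, Lama3, Lamb3 and Lamc3.

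RNA came from CBA/J mouse embryos, from inner ear epithelium freed from its surroundings with dispase and dissected by hand. It was hybridized to 64 Affymetrix arrays in 32 groups of 2 pools from different litters. The inner ear groups are otic placodes of E9, otic vesicles of E9.5 and E10, and the primordial cochlea and the primordial vestibular organ at every sampled stage from E10.5 to E12. From E12.5 to E15 they are the cochlea, the utricle together with the ampullae and the saccule at every sampled stage. The 3 groups of non-inner ear tissue, taken from the immediate surroundings of the ear and called surrounding tissue here, are from E9, from E9.5 to E10.5 pooled, and from E11 to E15 pooled. No group carries a genetic change or received a drug, and each array pools the tissue of several embryos. Tissue younger than E11 was in dispase for 8 to 10 minutes against 20 to 25 minutes for older tissue, so dispase time and stage cannot be told apart across that step.

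During the stages covered, the ear thickens as a placode, closes into a vesicle, and divides into the coiled cochlea, the sensor of sound, and the vestibular organs, which sense gravity and rotation. Laminins are trimers of 1 alpha, 1 beta and 1 gamma chain, and integrins are pairs of 1 alpha and 1 beta chain whose alpha chain largely sets the ligand. In mice, loss of the laminin gamma chain Lamc1 or of Itgb1 is lethal early in embryonic life, and Itga8 is known from mutant mice to be needed for the hair bundles of the inner ear.

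Promoter windows from RefSeq on GRCm38.p6, 250 bases before to 50 bases after an annotated start, were found for 21 of the 33 genes. The window nearest the listed start of the gene was taken. For Itga9, Lamb3, Itgav and Itgb7 it lies inside the gene and does not cover that start. That of Itga9 is chr9:118711442-118711741, in a gene listed from 118606709. Of the 21 windows, 5 are shown because the results turn on their genes: Agrn, higher in the ear than around it, Nid1, lower in the ear, Tnc, which appeared in the 3 late organs at different levels, and Itgb6 and Itga8, which rose together in the cochlea. Capitals mark matches on either strand to 5 motifs, and neighbouring matches may overlap. These are GGGCGG, known as the GC box, TATAAA, known as the TATA box, CCAAT, the core GGAATG of the TEAD motif and AGATAA, bound by GATA factors. The windows are chr4:156197439-156197738 on the minus strand, chr13:13437352-13437651 on the plus strand, chr4:64046966-64047265 on the minus strand, chr2:60722554-60722853 on the minus strand and chr2:12301895-12302194 on the minus strand, each written 5′ to 3′ along its gene.
Agrn: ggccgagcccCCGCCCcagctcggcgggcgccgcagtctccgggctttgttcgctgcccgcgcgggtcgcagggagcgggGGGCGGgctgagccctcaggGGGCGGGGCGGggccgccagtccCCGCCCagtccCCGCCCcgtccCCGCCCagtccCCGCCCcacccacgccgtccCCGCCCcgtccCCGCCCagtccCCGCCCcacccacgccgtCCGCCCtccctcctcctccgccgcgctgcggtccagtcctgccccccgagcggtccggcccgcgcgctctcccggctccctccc
Nid1: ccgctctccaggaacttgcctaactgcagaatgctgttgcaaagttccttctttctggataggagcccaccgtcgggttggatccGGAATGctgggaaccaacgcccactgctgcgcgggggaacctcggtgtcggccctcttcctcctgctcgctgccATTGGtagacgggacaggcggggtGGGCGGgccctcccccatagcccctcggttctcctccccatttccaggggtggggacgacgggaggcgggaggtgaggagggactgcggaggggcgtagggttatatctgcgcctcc
Tnc: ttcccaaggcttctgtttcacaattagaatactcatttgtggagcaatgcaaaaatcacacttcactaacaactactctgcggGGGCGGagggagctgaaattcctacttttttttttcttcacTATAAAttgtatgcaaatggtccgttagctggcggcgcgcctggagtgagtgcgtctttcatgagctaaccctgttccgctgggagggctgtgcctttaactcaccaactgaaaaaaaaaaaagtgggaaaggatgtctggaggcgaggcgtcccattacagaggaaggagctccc
Itgb6: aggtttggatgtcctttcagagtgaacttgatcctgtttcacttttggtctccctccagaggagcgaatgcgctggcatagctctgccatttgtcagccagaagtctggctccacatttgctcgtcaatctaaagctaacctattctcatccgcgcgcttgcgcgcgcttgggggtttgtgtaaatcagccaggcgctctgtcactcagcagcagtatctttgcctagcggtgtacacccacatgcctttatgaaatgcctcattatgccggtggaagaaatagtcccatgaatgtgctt
Itga8: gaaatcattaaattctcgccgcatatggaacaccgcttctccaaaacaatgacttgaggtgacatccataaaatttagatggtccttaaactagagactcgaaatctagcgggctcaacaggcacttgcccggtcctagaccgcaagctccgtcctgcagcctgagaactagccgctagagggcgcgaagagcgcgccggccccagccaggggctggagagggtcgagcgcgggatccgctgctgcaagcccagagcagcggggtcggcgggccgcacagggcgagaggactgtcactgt

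The windows differ widely in composition. That of Agrn is 83.3 percent G and C with 42 CpG dinucleotides and 12 GC box matches, whereas those of Itgb6 and Itga8 hold none of the 5 motifs at 50.3 and 59.0 percent G and C. Among the 21 windows only that of Tnc holds TATAAA, which 13.6 percent of 32851 mouse promoter windows hold. GGGCGG is in 15 of the 21 and in 35.7 percent of all windows, CCAAT in 3 and in 37.4 percent, GGAATG in 2 (Nid1 and Itgb1) and in 14.7 percent, and AGATAA in 0 and in 11.2 percent. These are letters in a window, and whether any is bound in the ear was not measured.

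Several facts of the arrays bear on what follows. The 8 epithelial markers listed for this work (Epcam, Cdh1 and others) were all higher in the ear in each of the 3 stage windows. Their summed signals were 4717 to 10125 on the ear arrays, against 294 to 1323 on the surrounding tissue arrays, where Epcam lay at the floor of 10 from E9.5 on. The lists of mesenchyme, endothelium, macrophages, red blood cells and neurons ran the other way from E11 on, whereas of 3 glia and neural crest markers 1 was higher and 1 lower in the ear. The summed signal of 8 periotic mesenchyme markers was at most 6256 on any ear array from E10.5 on, against 14212 to 15250.4 in the surroundings from E11 to E15. That of 7 endothelial markers was 390.5 to 840.2 on ear arrays, against 1215 to 1528 in the surroundings. That of 4 macrophage markers reached 1551, against 5779 and 5838 in the surroundings from E11 to E15. In dissected tissue, fewer cells of a type and less RNA per cell cannot be told apart. The 4 arrays of E11 had 9.81 to 12.04 percent of probe sets at the floor, against at most 8.63 percent elsewhere. At E14 a total of 141 genes lay more than 1 log2 unit below and 41 above the average of the stages on either side in 2 or more of the 3 organs. None of the 25 members was among those genes, although Lamc1 and Lamb2 were highest at E14 in the cochlea.

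A member is called changed in a comparison when its limma adjusted p (Benjamini-Hochberg over all 9352 genes tested) is under 0.05 and its change is at least 1 on the scale of log2(signal + 16). That scale understates the change of genes with low signals. Changes are given as log2 values ± SE from 1 model over all 64 arrays, and p-values rest on how far pools from separate litters differed. Tnc and Itga8 lay at the floor on 30 and 36 of the 64 arrays, and groups with both arrays at the floor show no spread. Their SE and p-values therefore understate how far pools differ where the genes are above the floor. A trend is the fitted change over the whole span of stages named. In all 16 comparisons, 18 of the 25 members were called at least once. Some passed the filter through few arrays: Nid1 through 8, Lama1 through 5, Lama4 through 4, Itga4 through 8 and Itga2 through 10. The highest signals of Nid1, Lama1 and Lama4 were in the surrounding tissue. Those of Itga4 were in the vestibular organ and those of Itga2 in the utricle and ampullae. The filter favours calls on the side where such members are high, so these calls are not independent of it.

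In the ear against the surrounding tissue, 1 of the 25 members (Nid1) was called at E9, where 5.93 percent of all genes were. At E9.5 to E10.5 the call was made for 5 members (Nid1, Agrn, Itga6, Itga4 and Fn1) and 8.4 percent of all genes. At E11 to E15 it was made for 10 members (Agrn, Itga6 and Itgb6 higher, Nid1, Nid2, Lama4, Tnc, Itga9, Itgav and Itgb7 lower) and 15.6 percent of all genes. By share these are 4.0, 20.0 and 40.0 percent of the members. The median log2 change over the 25 was 0.00, 0.02 and -0.24, against -0.05, 0.01 and -0.01 over all genes. The difference between ear and surroundings itself changed from E9 to the late window for 10 members, against 18.6 percent of all genes. Within the surrounding tissue 9 members differed between the E11 to E15 pools and E9, against 19.7 percent of all genes. These 5 comparisons share arrays, so their calls are not independent of each other.

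**Figure D1:**
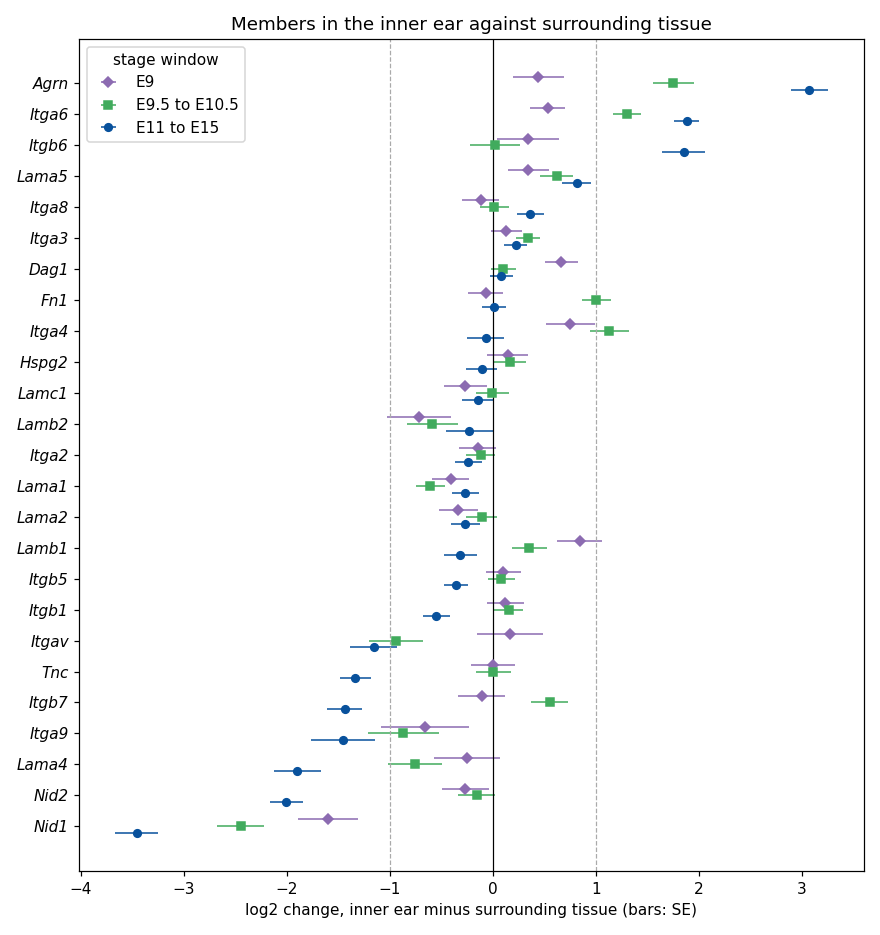
Change of the 25 members in the inner ear against the surrounding tissue, on the log2(signal + 16) scale, with bars of 1 SE, for E9, E9.5 to E10.5 and E11 to E15. Agrn, Itga6 and Itgb6 lie farthest to the right at E11 to E15 (3.07, 1.88 and 1.85) and Nid1 and Nid2 farthest to the left (-3.46 and -2.01), and dashed lines mark a change of 1.

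The nidogens, the linkers that bridge the laminin and collagen networks, were called lower in the ear, Nid1 in all 3 stage windows and Nid2 only at E11 to E15. Nid1 had signals of 26.0 and 28.8 in the E9 placodes, against 131 and 102 in the E9 surroundings, and the groups did not overlap (log2 change -1.60 ± 0.29, adjusted p = 9.31e-05, limma). At E9.5 to E10.5 it ran from 18.8 to 36.5 (median 26.7, n = 8) in the ear, against 200.4 and 224 in the surroundings (log2 change -2.45 ± 0.23, adjusted p = 3.91e-11, limma). From E11 to E15 it ran from 10.0 to 116 (median 27.9, n = 48) in the ear, against 623 and 410.0 in the surroundings, so that every ear array lay under both surrounding arrays (log2 change -3.46 ± 0.21, adjusted p = 3.97e-17, limma). Over the same span Nid1 rose in the surrounding tissue itself, where the late pools exceeded E9 by 1.98 ± 0.29, adjusted p = 4.23e-07 (limma). A second Nid1 probe set, below the filter at a mean signal of 39.1, was called in none of these comparisons. It gave -0.07 ± 0.28 at E9, -0.53 ± 0.22 at E9.5 to E10.5 and -0.78 ± 0.20 in the late window. In the late surroundings against E9 it gave 0.62 ± 0.28.

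Nid2, the other nidogen, showed no called difference at E9, with 103 and 107 in placodes, against 113 and 149.8 in the surroundings. It then fell in the ear, to 36.5 and 43.1 in the E10 vesicles, against 103 and 107 in the E9 placodes (log2 change -1.12 ± 0.23, adjusted p = 3.89e-04, limma). The surroundings were also lower at E9.5 to E10.5, at 57.6 and 60.6, a step that was not tested. Ear arrays of those stages ran from 29.2 to 90.1, and the difference from the surroundings was not called. In the late window the Nid2 signal was 12.6 to 120.1 (median 30.2, n = 48) in the ear, against 240.2 and 172 in the surroundings (log2 change -2.01 ± 0.16, adjusted p = 2.66e-13, limma). The highest ear values were those of the saccule, which is taken up with the other organs below.

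Agrin, a heparan sulfate proteoglycan of basement membranes that binds laminins and dystroglycan, went the opposite way. Its signal was 204 and 193 in E9 placodes, against 109.9 and 181 in the E9 surroundings, a difference that was not called (log2 change 0.44 ± 0.25, adjusted p = 0.2138, limma). At E9.5 to E10.5 ears had 145 to 371 (median 322, n = 8), against 69.6 and 68.7 in the surroundings (log2 change 1.75 ± 0.20, adjusted p = 5.39e-09, limma). At E11 to E15 ears had 210.0 to 671 (median 410.3, n = 48), against 38.7 and 29.6 in the surroundings, again with no overlap (log2 change 3.07 ± 0.18, adjusted p = 2.53e-17, limma). The level outside the ear fell over the same span, with a log2 change of -1.66 ± 0.25, adjusted p = 9.89e-07 (limma) between the late surroundings and those of E9. The ear array with the highest signal was an E14.5 utricle pool at 671.

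**Figure D2:**
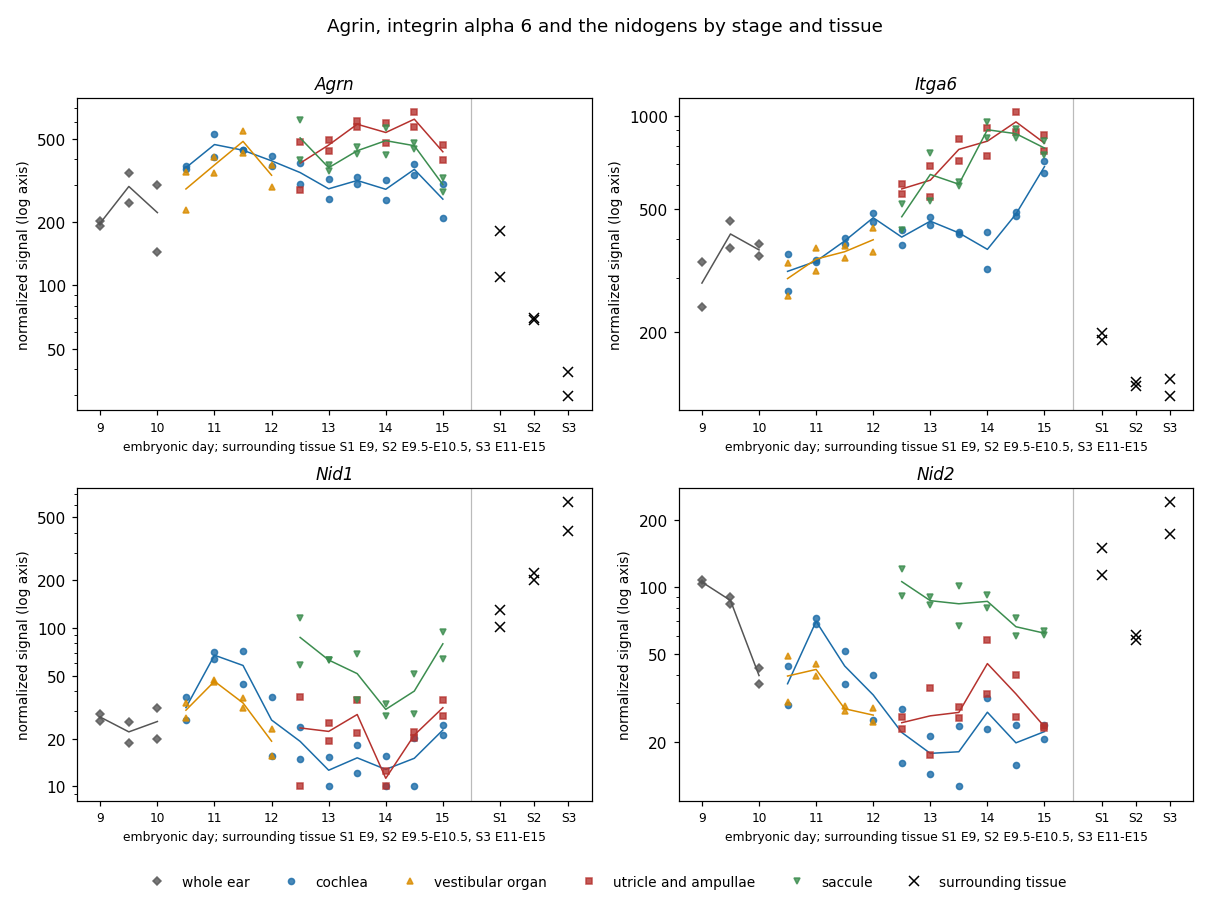
Normalized signal (log axis) of Agrn, Itga6, Nid1 and Nid2 on each array by embryonic day and tissue, with lines through the group means and crosses for the surrounding tissue (S1 at E9, S2 at E9.5 to E10.5, S3 at E11 to E15). Late surroundings lie at 38.7 and 29.6 for Agrn and 623 and 410.0 for Nid1, under and over every ear array of those stages.

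Perlecan (Hspg2), the other large proteoglycan of the basement membrane, stayed within 137 to 502 over the 58 ear arrays and 258 to 349.8 over the 6 surrounding arrays and was called nowhere. Its lowest 4 arrays were the E11 pools, with 137 and 195 in the cochlea and 158 and 154 in the vestibular organ, the same arrays that have the most probe sets at the floor.

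Among laminin alpha chains, Lama4, a chain of blood vessel and mesenchymal basement membranes, was low in the ear and rose outside it. It had 10.0 to 110.3 (median 32.1, n = 48) on late ear arrays, against 224 and 128 in the late surroundings (log2 change -1.90 ± 0.23, adjusted p = 8.17e-09, limma). In the surroundings it had 224 and 128 in those late pools, against 36.7 and 14.9 at E9 (log2 change 2.21 ± 0.32, adjusted p = 4.59e-07, limma). The second Lama4 probe set, which did not pass the filter, gave -0.17 ± 0.18 and -0.37 for the same comparisons, so the calls rest on 1 probe set. Within the ear the highest Lama4 values, from the same 1 probe set, were those of the saccule, at 38.1 to 110.3 from E12.5 to E15. The utricle and ampullae had 23.0 to 71.6, which overlaps the saccule, and the cochlea 10.0 to 40.6. No comparison between organs called Lama4. The endothelial marker sums given above also differed between ear and surroundings, and their part in the Lama4 difference was not tested.

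Lama1, the alpha chain of early embryonic basement membranes, was highest at the start in both tissues. It had 52.1 and 36.3 in the late surroundings, against 99.5 and 133 in the surroundings at E9 (log2 change -1.14 ± 0.18, adjusted p = 2.22e-06, limma). That call was lost without the second late array (-0.94) or the second E9 array (-0.95). In the ear it had 71.0 and 95.8 at E9 and 25.8 and 28.9 in the E15 cochlea, and no ear comparison called it. Lama5, the broadly expressed epithelial alpha chain, was higher in late ears at 90.8 to 227 (median 155, n = 48), against 55.8 and 101 in the surroundings, but by less than 1 log2 unit (log2 change 0.81 ± 0.14, adjusted p = 7.81e-06, limma). Lama2, best known from muscle, ranged from 24.8 to 96.2 in the ear and had its largest trend in the cochlea at 1.00 ± 0.14, which fell just short of the threshold before rounding.

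The laminin beta chain Lamb1 set the cochlea apart. Lamb1 had 211 and 215 in the cochlea at E11, 329 and 287 at E13 and 444 and 994 at E15, a fitted rise of 1.34 ± 0.16, adjusted p = 4.00e-09 (limma). The E15 arrays differ from each other more than 2-fold. Over E12.5 to E15 the cochlea had 226 to 994 (median 337, n = 12), against 99.4 to 203 (median 127, n = 12) in the utricle and ampullae (log2 change 1.36 ± 0.09, adjusted p = 4.16e-16, limma). Against the saccule, at 94.8 to 178 (median 144, n = 12), the cochlea was higher by 1.25 ± 0.09, adjusted p = 5.56e-15 (limma). All 12 cochlea arrays lay above all 12 arrays of the utricle and above all 12 of the saccule. A second kept Lamb1 probe set gave the same calls, at 1.70 ± 0.10 and 1.41 ± 0.10.

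At E9 Lamb1 had 246 and 258 in the placodes, against 129 and 139 in the surroundings, below the threshold at 0.84 ± 0.22. In the late window the ear as a whole differed by -0.32 ± 0.16, a change of -1.16 ± 0.27, adjusted p = 7.60e-04 (limma) between the windows.

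Lamb2, the beta chain that replaces Lamb1 in many mature basement membranes, had 258 and 94.3 in E10 vesicles, against 51.2 and 73.2 in E9 placodes (log2 change 1.17 ± 0.31, adjusted p = 0.0056, limma). That call was lost without the first vesicle array, where the change was 0.51 with an adjusted p of 0.3284, and without the first placode array (0.96). In the cochlea Lamb2 had 348 and 282 at E11, 171 and 165 at E12, 773 and 550.3 at E14 and 366 and 346 at E15. The fitted rise from E11 to E15 was 1.23 ± 0.23, adjusted p = 1.72e-05 (limma), but it fell to 0.97 without the E14 arrays and to 0.47 over E12.5 to E15. The lowest cochlear values of that span were those of E11.5 and E12. In the surroundings, the late pools had 324 and 354, against 80.1 and 153 at E9 (log2 change 1.48 ± 0.31, adjusted p = 1.54e-04, limma).

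Lamc1, the gamma chain of most laminin trimers, climbed late in the ear by its brighter probe set. Cochlea signals were 374 and 416 at E11, 499 and 585 at E13, 1187 and 1341 at E14 and 1170.2 and 732 at E15 (fitted rise 1.72 ± 0.15, adjusted p = 2.30e-12, limma). In the utricle and ampullae they were 475 and 756 at E12.5, 1697 and 1659 at E14 and 1370.0 and 1388 at E15 (fitted rise 1.20 ± 0.17, adjusted p = 1.06e-06, limma), which fell to 0.96 without the first E12.5 array. The other kept Lamc1 probe set was not called, with -0.36 ± 0.19 for the cochlea and -0.20 ± 0.22 for the utricle. The mean of both fell short of the threshold at 0.68 and 0.50, so these data do not settle the direction for the gene.

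**Figure D3:**
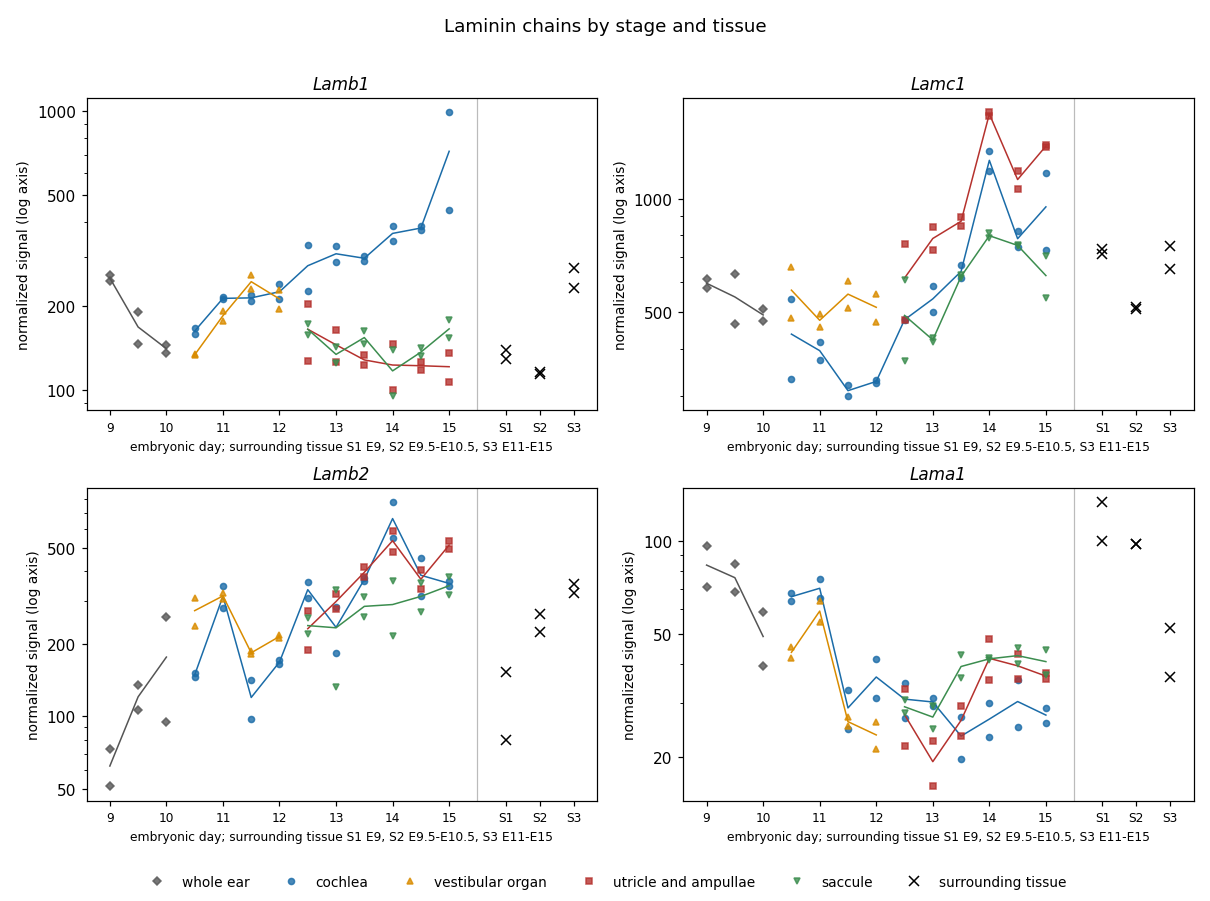
Normalized signal (log axis) of Lamb1, Lamc1, Lamb2 and Lama1 on each array by embryonic day and tissue, with lines through the group means and crosses for the surrounding tissue (S1 at E9, S2 at E9.5 to E10.5, S3 at E11 to E15). Lamb1 parts the cochlea, up to 994, from the utricle and saccule, at most 203 and 178 from E12.5 on, and Lamc1, by its brighter probe set, peaks at E14 in the cochlea and utricle.

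Fibronectin (Fn1, chr1:71585473-71653280 on GRCm38.p6), the matrix protein bound by many integrins, was called in every comparison between organs. Of the members, 2 were called between cochlea and vestibular organ at E10.5 to E12, where 1.41 percent of all genes were called. Fn1 had 1008 to 1648 (median 1367, n = 8) in the cochlea, against 2671 to 4990.5 (median 4244, n = 8) in the vestibular organ (log2 change -1.54 ± 0.08, adjusted p = 1.65e-17, limma), with no overlap. From E12.5 to E15 it had 1441 to 2569 (median 1731, n = 12) in the cochlea, against 4367 to 7003 (median 5028, n = 12) in the utricle and ampullae (log2 change -1.54 ± 0.07, adjusted p = 2.88e-21, limma). The saccule stood lowest, with 589 to 941 (median 765, n = 12), against the same utricle arrays (log2 change -2.79 ± 0.07, adjusted p = 1.60e-29, limma). The cochlea in turn exceeded the saccule by 1.25 ± 0.07, adjusted p = 2.70e-18 (limma). The order utricle and ampullae, cochlea, saccule held at each of the 6 stages without overlap between arrays of neighbouring organs.

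The difference from the surroundings depends on the stage for Fn1. At E9.5 to E10.5 ears had 1008 to 2772 (median 2099.8, n = 8), against 927 and 939 in the surroundings (log2 change 1.00 ± 0.14, adjusted p = 1.75e-07, limma), which is at the threshold and was lost without the first E9.5 vesicle array (0.93), the second E10.5 cochlea array (0.97) or the first surrounding array (1.00, under 1 before rounding). In the late window the ear as a whole averaged the same as its surroundings within the error (0.01 ± 0.12), with utricles above and saccules below the surrounding arrays of 2544 and 1712. The second Fn1 probe set, below the filter at a mean signal of 22.5, was called in none of these comparisons.

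Tenascin C (Tnc), a matrix glycoprotein of developing tissues that loosens adhesion to fibronectin, rose in all 3 late organs, last in the cochlea. It lay at the floor of 10.0 on every ear array up to E11.5 and on every cochlea array up to E13.5. The vestibular organ had 32.3 and 33.1 at E12. The utricle and ampullae had 48.3 and 75.1 at E12.5, 209 and 172 at E13.5, 353 and 317 at E14.5 and 687 and 592 at E15, a fitted rise of 2.78 ± 0.18, adjusted p = 2.15e-15 (limma). The saccule had 38.6 and 39.0 at E12.5, 219 and 96.4 at E13.5 and 448 and 623 at E15, a fitted rise of 3.35 ± 0.18, adjusted p = 6.65e-18 (limma). In the cochlea it had 10.0 and 12.6 at E14, 47.5 and 32.7 at E14.5 and 119.7 and 93.2 at E15 (fitted rise over E11 to E15 1.64 ± 0.16, adjusted p = 1.88e-11, limma).

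At matched stages Tnc was lower in the cochlea at 10.0 to 119.7 (median 10.0, n = 12) than in the utricle and ampullae at 48.3 to 687 (median 214, n = 12) (log2 change -2.55 ± 0.09, adjusted p = 5.03e-25, limma). The saccule had 38.6 to 623 (median 191, n = 12), and the cochlea was lower by a log2 change of -2.26 ± 0.09, adjusted p = 2.69e-23 (limma). The surrounding tissue moved too, with 198 and 145 in the late pools, against the floor on both arrays at E9 (log2 change 2.84 ± 0.21, adjusted p = 7.39e-14, limma). The late ear as a whole was lower than those pools (log2 change -1.34 ± 0.15, adjusted p = 1.62e-09, limma), yet the 2 ranges overlap, because every utricle array from E13.5 on lay above the lower of the surrounding arrays. How the stages were mixed in the pools is not known here. As Tnc changes strongly over these stages, this difference depends on that mix. In the utricle trend 1 of 8 mesenchyme markers rose (Col1a1, 1.64 ± 0.38) and 1 fell (Lum, -2.31 ± 0.32), with a median of -0.03 over the list, and 1 of 4 macrophage markers rose (Mrc1, 2.80 ± 0.40), with a median of -0.04. Summed signals of 7 neuronal markers were 460.4 to 1709 in the cochlea at E12.5 to E15, against 1729.6 to 5569.7 in the utricle and 1872 to 6487 in the saccule, with no overlap. Of these 7, the cochlea was called lower for 3 and higher for 1 against the utricle, and lower for 3 and higher for 0 against the saccule. The part of these markers in the Tnc differences was not tested.

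**Figure D4:**
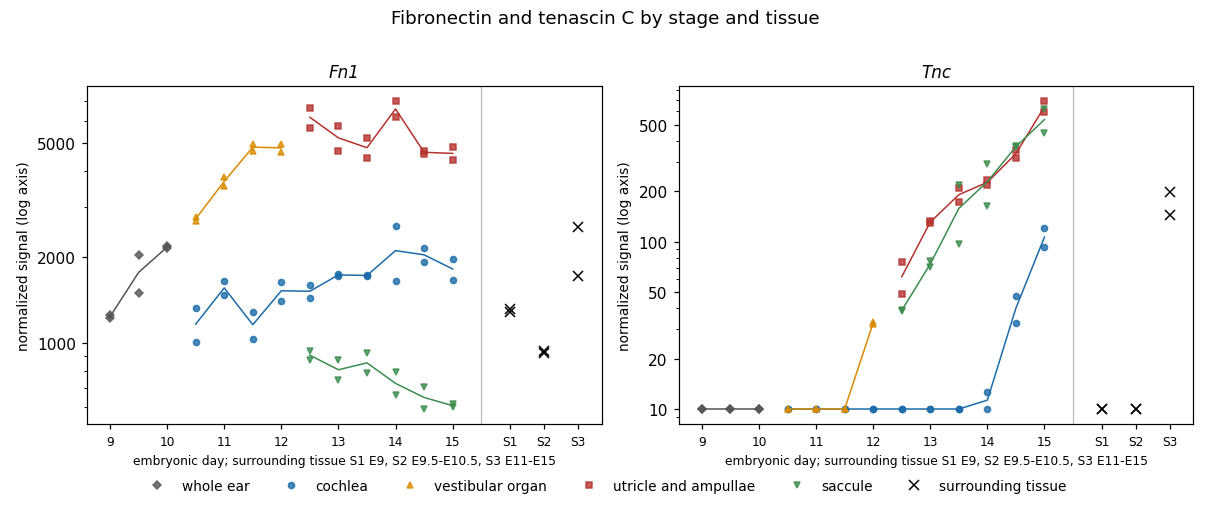
Normalized signal (log axis) of Fn1 and Tnc on each array by embryonic day and tissue, with lines through the group means and crosses for the surrounding tissue (S1 at E9, S2 at E9.5 to E10.5, S3 at E11 to E15). For Fn1 the utricle and ampullae lie above the cochlea and the cochlea above the saccule at each stage from E12.5, and for Tnc the cochlea leaves the floor of 10.0 only from E14.

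Counts for the late organs put these genes beside the rest. Between cochlea and utricle 3 members were called (Tnc, Fn1 and Lamb1), against 3.07 percent of all genes. Between cochlea and saccule 6 were called (Tnc, Nid2, Nid1, Lamb1, Fn1 and Itga9), against 3.77 percent. Between saccule and utricle 2 were called (Fn1 and Nid2), against 2.72 percent. Both nidogens had their highest median of the late organs in the saccule, but Nid1 was not called between saccule and utricle. Its ranges there overlapped, at 28.0 to 116 (median 60.5) in the saccule and 10.0 to 36.8 (median 21.7) in the utricle. Nid2 had 60.0 to 120.1 (median 81.8, n = 12) in the saccule, against 17.4 to 57.3 (median 25.9, n = 12) in the utricle (log2 change 1.10 ± 0.09, adjusted p = 1.13e-12, limma). The cochlea, at 12.6 to 31.6 (median 22.0, n = 12), was lower than the saccule by a log2 change of -1.39 ± 0.09, adjusted p = 9.82e-16 (limma), with no overlap. Nid1 was also lower in the cochlea, at 10.0 to 24.4 (median 15.5, n = 12), against 28.0 to 116 (median 60.5, n = 12) in the saccule (log2 change -1.15 ± 0.12, adjusted p = 1.46e-10, limma). The second Nid1 probe set gave -0.16 ± 0.11 here and was not called. Of the mesenchyme markers, Pdgfra (-1.23 ± 0.14) and Col1a1 (-1.21 ± 0.18) were likewise lower in the cochlea than in the saccule while Lum was higher (3.91 ± 0.15), with summed mesenchyme signals of 2927 to 6256 in the cochlea, against 2042 to 3559.6 in the saccule. Their part in the nidogen difference was not tested.

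Integrin alpha chains are taken next. Itga6, which pairs with Itgb1 or Itgb4 as a laminin receptor of epithelia, was higher in the ear in both later windows. Ears at E9.5 to E10.5 had 262 to 458 (median 355, n = 8), against 134 and 138 in the surroundings (log2 change 1.30 ± 0.14, adjusted p = 4.09e-10, limma). From E11 on they had 316 to 1030.4 (median 526, n = 48), against 141 and 124 in the surroundings (log2 change 1.88 ± 0.12, adjusted p = 3.74e-16, limma). No ear array overlapped with a surrounding array of its window. The highest values were those of the late utricle and saccule, up to 1030.4. A second kept Itga6 probe set was called at E9.5 to E10.5 (1.15 ± 0.19) but was under 1 in the late window (0.87 ± 0.17).

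Itga8, which with Itgb1 binds nephronectin and fibronectin, was at the floor of 10.0 on every cochlea array up to E13 and every vestibular organ array up to E12. The cochlea then had 19.5 and 10.0 at E13.5, 30.1 and 22.9 at E14, 39.7 and 43.9 at E14.5 and 136 and 147 at E15 (fitted rise 2.06 ± 0.13, adjusted p = 2.63e-16, limma). In the saccule it had 10.0 and 11.4 at E12.5 and 50.8 and 35.7 at E15 (fitted rise 1.35 ± 0.15, adjusted p = 3.86e-09, limma). In the utricle it had 18.1 and 21.7 at E15 with no called trend. The cochlear rise over E12.5 to E15 exceeded that of the utricle by 1.94 ± 0.21, adjusted p = 2.34e-08 (limma). It exceeded that of the saccule by 1.07 ± 0.21, adjusted p = 5.63e-04 (limma), which fell to 0.93 without the second E15 saccule array.

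Itga4, which with Itgb1 or Itgb7 binds fibronectin and VCAM-1, had trends that differed between the late organs. In the cochlea it had 37.1 and 22.0 at E12.5 and 74.6 and 66.6 at E15. In the utricle and ampullae it had 109 and 64.5 at E12.5 and 26.6 and 23.4 at E15 (fitted trend in the utricle -1.35 ± 0.21, adjusted p = 2.40e-06, limma). The trends differed by 2.33 ± 0.29, adjusted p = 3.48e-07 between cochlea and utricle and by 1.49 ± 0.29, adjusted p = 3.80e-04 between cochlea and saccule (limma). Earlier, Itga4 was lower in the cochlea at 27.8 to 73.4 (median 34.0, n = 8) than in the vestibular organ at 63.4 to 167 (median 96.8, n = 8) (log2 change -1.01 ± 0.12, adjusted p = 2.94e-08, limma). That call is at the threshold and fell under it without any of 7 single arrays, 3 of the cochlea and 4 of the vestibular organ, with the smallest size, -0.91, without the second E10.5 cochlea array. At E9.5 to E10.5 it was higher in the ear, at 34.0 to 167 (median 82.9, n = 8), against 33.6 and 28.7 in the surroundings (log2 change 1.13 ± 0.19, adjusted p = 1.35e-05, limma). The 2 other Itga4 probe sets lay below the filter, at mean signals of 22.1 and 11.0. In that order they gave 0.45 and -0.03 for the trend difference from the utricle and 0.20 and -0.08 for that from the saccule. For the utricle trend they gave -0.44 and -0.01, and none of these values was called. The first was called between cochlea and vestibular organ (-1.01 ± 0.09) and at E9.5 to E10.5 (1.10 ± 0.14), the second in neither.

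Itga2, a collagen and laminin receptor chain, was called in the utricle trend and in no other trend of 1 organ. There it had 58.5 and 47.6 at E12.5, 88.2 and 88.6 at E14 and 144 and 168 at E15 (fitted rise 1.27 ± 0.15, adjusted p = 2.36e-08, limma). The saccule reached 123 and 115 at E15 with a trend of 0.47 ± 0.15 that was not called. In the cochlea it had 58.0 and 68.6 at E12.5 and 51.3 and 45.9 at E15, and its trend differed from that of the utricle by -1.45 ± 0.22, adjusted p = 1.24e-05 (limma).

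Itga9, a chain of a tenascin C receptor, and Itgav, which with several beta chains binds proteins through the RGD sequence, were lower in late ears. Itga9 had 10.0 to 183 (median 89.3, n = 48) in the ear, against 368 and 155 in the surroundings (log2 change -1.46 ± 0.31, adjusted p = 1.20e-04, limma). Itgav had 127 to 1012 (median 189, n = 48) in the ear, against 655 and 338 in the surroundings (log2 change -1.16 ± 0.23, adjusted p = 5.25e-05, limma). The ranges overlapped for both genes, and both calls were lost without the first surrounding array (-0.87 with adjusted p = 0.0853 and -0.70 with adjusted p = 0.0644). In the surroundings Itgav had 655 and 338 in the late pools, against 115 and 71.9 at E9 (log2 change 2.18 ± 0.32, adjusted p = 4.83e-07, limma). Itga9 had 368 and 155 in those pools, against 101 and 99.8 at E9 (log2 change 1.14 ± 0.43, adjusted p = 0.0262, limma), a call lost without the first late array (0.56) or either E9 array (1.15 and 1.13, with adjusted p of 0.0849 and 0.0910). Between organs, Itga9 was higher in the cochlea at 44.0 to 183 (median 132, n = 12) than in the saccule at 10.0 to 101 (median 31.1, n = 12) (log2 change 1.46 ± 0.17, adjusted p = 4.74e-09, limma). The other probe sets of these genes, 2 for each and all below the filter, were called in none of these comparisons. For Itga9 they gave -0.74 and -0.27 in late ears, 0.46 and 0.39 in the late surroundings against E9, and 0.13 and 0.01 between cochlea and saccule. For Itgav they gave 0.01 and 0.32 in late ears and 0.16 and -0.44 in the surroundings, so each of these calls rests on 1 probe set.

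Itgav had 125 and 109 at E10.5 and 285 and 284 at E12 in the vestibular organ (fitted rise 1.08 ± 0.30, adjusted p = 0.0116, limma), the 1 member called in that trend, where 4.02 percent of all genes were. Over E11 to E12, within 1 dispase time, it was 0.49 and not called, and it was also not called without the second E10.5 array or either E12 array. In the utricle it had 1012 and 375 at E12.5 and 279.9 and 263 at E15 (fitted trend -1.05 ± 0.27, adjusted p = 0.0027, limma), and without the first E12.5 array, the highest of all 64, the trend was -0.55 and not called. Without the first E13 array it was -0.93, under the threshold of size. Its 2 other probe sets, both below the filter, showed neither trend.

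Among the beta chains, Itgb6, an epithelial partner of Itgav whose dimer binds fibronectin and tenascin C and activates latent TGF-beta, showed the largest cochlear trend of any member. Its cochlear signal was 80.2 and 41.4 at E11, 82.4 and 86.2 at E12, 113 and 85.2 at E13, 209 and 319 at E14 and 878 and 598 at E15 (fitted rise 2.94 ± 0.22, adjusted p = 2.29e-14, limma). The utricle had 94.8 and 91.3 at E12.5 and 130.0 and 111 at E15, and the saccule 153 and 270.3 at E12.5 and 304 and 316 at E15, with no called trend in either. The cochlear rise over E12.5 to E15 exceeded that of the utricle by 2.59 ± 0.36, adjusted p = 2.59e-06 and that of the saccule by 1.91 ± 0.36, adjusted p = 2.11e-04 (limma). Against the surroundings, late ears had 41.4 to 878 (median 121, n = 48), against 28.6 and 27.4 in the surroundings (log2 change 1.85 ± 0.21, adjusted p = 2.45e-09, limma), and no array overlapped. The gene's other probe set, below the filter at a mean signal of 26.3, showed neither change.

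**Figure D5:**
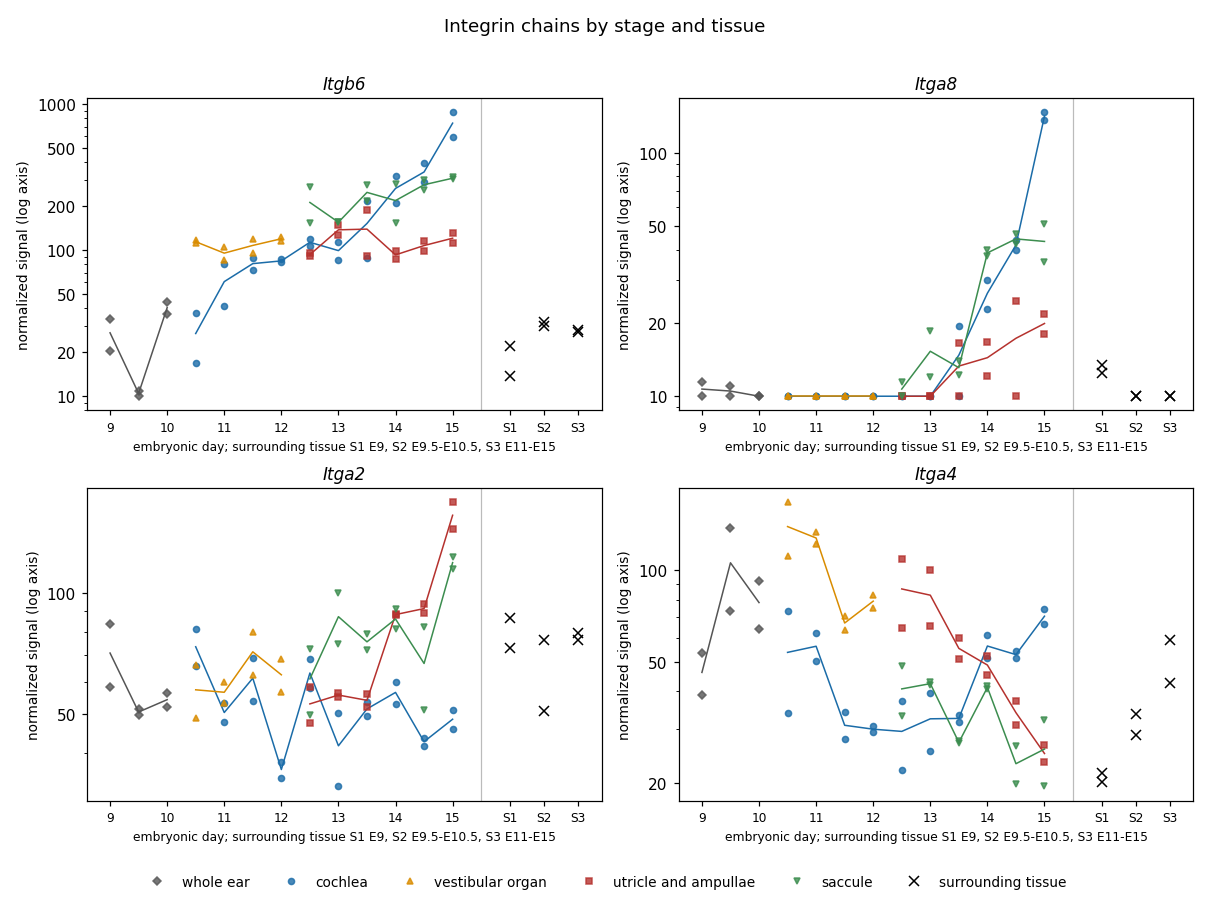
Normalized signal (log axis) of Itgb6, Itga8, Itga2 and Itga4 on each array by embryonic day and tissue, with lines through the group means and crosses for the surrounding tissue (S1 at E9, S2 at E9.5 to E10.5, S3 at E11 to E15). Itgb6 and Itga8 end highest in the E15 cochlea (878 and 598; 136 and 147), Itga2 ends highest in the E15 utricle, and the cochlea and utricle cross for Itga4.

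Itgb7, best known as the partner of Itga4 on lymphocytes, had 219.6 to 501 (median 308, n = 48) in late ears, against 990.5 and 742 in the surroundings (log2 change -1.44 ± 0.17, adjusted p = 2.19e-09, limma), with no overlap. In the surroundings it had 990.5 and 742 in the late pools, against 321 and 352 at E9 (log2 change 1.31 ± 0.23, adjusted p = 1.15e-05, limma). Macrophage marker sums in the surroundings were 5779 and 5838 in the late pools, against 635 and 649 at E9, and their part in the Itgb7 difference was not tested. Itgb1, the partner of most alpha chains, ranged only from 101 to 209 in the ear and 109.8 to 259.8 in the surroundings, and Itgb5, another partner of Itgav, from 79.2 to 221 and 103 to 226. Neither was called in any comparison.

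Dystroglycan (Dag1), the other main laminin receptor and a ligand of agrin and perlecan, ranged from 599 to 1315 in the ear and 560.2 to 986 in the surroundings. Its largest difference was at E9, with 851 and 964 in placodes, against 577 and 560.2 in the surroundings (log2 change 0.66 ± 0.16, adjusted p = 0.0022, limma), which passed the p threshold but not the size. Itga3, a laminin receptor chain, stayed within 67.5 to 143 in the ear. With Hspg2, Lama2, Lama5, Itgb1 and Itgb5 these make the 7 members that no comparison called.

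By trend, 6 members were called as rising in the cochlea from E11 to E15 (Lamb2, Lamb1, Tnc, Lamc1, Itga8 and Itgb6), against 7.67 percent of all genes in that direction, and 1 as falling (Nid1), against 6.85 percent. Among the rising members, Itga8 passed the filter only through its E15 cochlea signals. In the utricle 5 were called over E12.5 to E15 (Itga4, Itgav, Lamc1, Itga2 and Tnc), against 7.53 percent, and in the saccule 2 (Itga8 and Tnc), against 7.08 percent. The cochlear trend differed from that of the utricle for 6 members (Itga2, Itga4, Itga8, Itgav, Itgb6 and Lamb1), against 3.86 percent of all genes, and from that of the saccule for 5 (Itga4, Itga8, Itgb6, Lamb1 and Tnc), against 5.04 percent. From E9 to E10 the whole ear changed for 2 members (Nid2 and Lamb2), against 5.29 percent. The cochlear fall of Nid1, at -1.25 ± 0.21, adjusted p = 4.24e-06 (limma), set 71.0 and 63.8 at E11 against 24.4 and 21.0 at E15. It lay before E12.5: over E12.5 to E15 the trend was 0.13, and without the E11 arrays it was -0.77, under the threshold of size. The second Nid1 probe set, below the filter, gave 0.26 ± 0.20 over E11 to E15, of the opposite sign and not called. In the cochlea the 3 red blood cell markers fell over the same stages, with a median change of -5.62, and 5 of 7 neuronal markers fell. Of 8 mesenchyme markers 2 fell (Snai2, -1.34 ± 0.21, and Twist1, -1.43 ± 0.22) and 1 rose (Lum, 1.78 ± 0.28), while no endothelial marker was called. Their part in the trends of the members was not tested.

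The 8 members below the filter stayed low. Over the ear arrays Itga5 ranged from 10.0 to 80.8, Itga7 from 10.0 to 62.1, Itgb2, a leukocyte chain, from 10.0 to 24.7 and Itgb3 from 10.0 to 61.1. Lama3 ranged from 10.0 to 64.2, Lamb3 from 10.0 to 51.0 and Lamc3 from 10.0 to 57.1. Itgb4, the partner of Itga6 in hemidesmosomes, had 18.4 and 10.0 in the utricle at E12.5, 36.2 and 74.0 at E14 and 94.3 and 79.6 at E15. When all genes were tested without the filter, this utricle trend was the only call among the 8 members in the 16 comparisons (log2 change 1.61 ± 0.26, limma adjusted p = 9.50e-06).

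Genes that work with the members were read from lists of partners. Of 13 tested basement membrane partners, 3 were higher and 1 lower in late ears, where 15.6 percent of all genes were called, with a median log2 change of -0.14 against -0.01 for all genes. Col18a1, the heparan sulfate collagen of basement membranes, was higher (2.73 ± 0.13), as were the SPARC-related Smoc1 (2.61 ± 0.15) and Npnt, the ligand of Itga8 (1.24 ± 0.16), and Fbln2 was lower (-2.92 ± 0.16). In the cochlear trend, where 7.67 percent of all genes rose and 6.85 percent fell, 3 of the 13 rose and 0 fell: Smoc2 by 4.72 ± 0.16, Sparc by 1.64 ± 0.14 and Fbln2 by 1.55 ± 0.16. Between cochlea and saccule, where 3.77 percent of all genes were called, 1 of the 13 was: Smoc1, lower in the cochlea (-2.36 ± 0.09).

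Of 12 tested adhesion adaptors, 1 was higher and 2 lower in late ears, against 15.6 percent of all genes called: the tetraspanin Cd151, which binds laminin-binding integrins (1.18 ± 0.09), and Lims2 and Ilk, parts of 1 complex at integrin tails (-1.70 ± 0.16 and -1.01 ± 0.14). No adaptor was called between the late organs. Of 10 dystroglycan partners, 1 was called in late ears (again against 15.6 percent), Dtna, higher by 4.78 ± 0.34, and Dmd, which encodes dystrophin, was higher in the cochlea than in the saccule by 1.75 ± 0.14. Of 7 proteases and inhibitors of the matrix, 3 were lower and 0 higher in late ears (against the same 15.6 percent): Htra1 (-4.67 ± 0.25), Timp3 (-1.97 ± 0.14) and Mmp2 (-1.35 ± 0.12). Timp3 was also lower in the cochlea than in the utricle by -2.86 ± 0.08 and in the saccule than in the utricle by -3.09 ± 0.08, and Mmp2 rose in the trend of each late organ, by 1.59 ± 0.13 in the cochlea, 1.62 ± 0.15 in the utricle and 1.49 ± 0.15 in the saccule.

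Chains known to assemble did not all move in step across the 29 ear groups. As a description over group means that share stages, arrays and array depth, Pearson's r was 0.77 for Lama5 and Lamc1, 0.69 for Lamb2 and Lamc1 and -0.08 for Lamb1 and Lamc1, with Lamc1 taken from its brighter probe set. The nidogens had r = 0.65. Of the integrin pairs, Itgav and Itgb6 had 0.45 and Itga6 and Itgb1 had 0.16. The ligand and receptor pairs Fn1 and Itga4 had 0.50, Npnt and Itga8 had 0.26, and Tnc and Itga9 had -0.48. Itga8 and Itgb6, which do not pair with each other, had 0.74, and Lamb1 and Itgb6, which also do not pair, had 0.32. Both of these pairs were picked because their genes were called together in these data. Their r is therefore not a separate test of whether they move in step. Itga8 also lay at the floor in many of these groups.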

How the data were processed

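The deposited values are linear probe set intensities that the authors made with MAS5, per the submitters' processing notes; its version and scaling target were not given in the sources used here. Their floor is exactly 10, where 5.43 to 12.04 percent of probe sets lie on each array. Array medians run from 64.7 to 107.6, and with 2 arrays per group the number of arrays limits the precision.

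Probe sets were named from the platform's annotation: of 22626, 20380 have 1 gene symbol and 691 several, which were left out. Intensities were quantile normalized and transformed as log2(signal + 16). The filter kept 15337 probe sets, 14014 of them with 1 symbol, standing for 9352 genes. limma 3.58.1 in R 4.3.3 fitted 1 coefficient per group (32 residual degrees of freedom) with trended moderated variances, and contrasts gave the 16 comparisons. Within a window, stages weigh equally, and each stage is the mean of its tissues. The mix of stages within the pooled surrounding tissue is not known here and may differ from these weights. A trend is the least-squares slope over group means times the days spanned. P-values are two-sided. The fit was tested on simulated data. Across the 9352 genes kept, on the log2(signal + 16) scale, the 2 arrays of a group had correlations of 0.9473 to 0.9914.

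Replicate numbers come from the sample titles. Deviations from group means of same-numbered arrays correlated at 0.203 to 0.508 in all 6 pairs of cochlea and utricle, so the numbers pair these. From E12.5 to E14.5 they also correlated at 0.163 to 0.571 for cochlea and saccule and at 0.133 to 0.502 for utricle and saccule. At E15 the saccule ran the other way, at -0.499 with the cochlea and -0.342 with the utricle.

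In each comparison every called member is named. The members, the partner and marker lists, the comparisons and the alternatives were chosen with earlier results of these data known. The settings varied were the pseudocount (1 and 64), the filter (none, or 16 arrays), intensities as deposited, the mean of a gene's kept probe sets, array weights, a fit on the compared groups alone, a replicate block, leaving out each array, and leaving out the E11 or E14 arrays or changing the stages of a trend.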

Additional observations from a re-analysis of the deposited data

Results flagged for a closer look

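These results are ones in which the same contrast differed between stages or organs by a test of the difference itself (limma, log2 ± SE, adjusted over all genes). The difference between ear and surroundings changed between E9 and E11 to E15 for Agrn 2.62 ± 0.31 (adjusted p = 1.83e-08), Itga6 1.35 ± 0.21 (adjusted p = 2.68e-06), Itgav -1.32 ± 0.39 (adjusted p = 0.0077), Itgb6 1.50 ± 0.37 (adjusted p = 0.0014), Itgb7 -1.32 ± 0.28 (adjusted p = 3.30e-04), Lama4 -1.65 ± 0.40 (adjusted p = 0.0012), Lamb1 -1.16 ± 0.27 (adjusted p = 7.60e-04), Nid1 -1.86 ± 0.36 (adjusted p = 7.52e-05), Nid2 -1.74 ± 0.28 (adjusted p = 5.64e-06) and Tnc -1.34 ± 0.26 (adjusted p = 9.63e-05). A positive value means a larger excess in the ear late than at E9. For Itgav this was lost without any of 3 single arrays, with values of -0.86 to -1.03. The other probe set gave -0.32 for Lama4, -0.71 for Nid1 and 0.17 for Itgb6, none of them called. Those of Itgav gave -0.03 and 0.35 and were not called. Of the other Lamb1 probe sets, the kept one was called (-1.78) and the one below the filter was not (-0.58). The mean of both kept Itga6 probe sets gave 0.84, and the second alone gave 0.33 and was not called.

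The trend over E12.5 to E15 differed between cochlea and utricle for Itga2 -1.45 ± 0.22 (adjusted p = 1.24e-05), Itga4 2.33 ± 0.29 (adjusted p = 3.48e-07), Itga8 1.94 ± 0.21 (adjusted p = 2.34e-08), Itgav 1.48 ± 0.38 (adjusted p = 0.0111), Itgb6 2.59 ± 0.36 (adjusted p = 2.59e-06) and Lamb1 1.42 ± 0.26 (adjusted p = 2.77e-04). A positive value means a larger rise in the cochlea. The Itgav difference was lost without any of 3 single arrays, with values of 0.98 to 1.33. For Itga4 the other probe sets, below the filter, gave 0.45 and -0.03 and were not called. Other probe sets below the filter gave 0.84 for Itgb6 and -0.30 and 0.12 for Itgav, none called. For Lamb1 the second kept probe set was called (1.38) and the one below the filter was not (0.54).

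Between cochlea and saccule the trend differed for Itga4 1.49 ± 0.29 (adjusted p = 3.80e-04), Itga8 1.07 ± 0.21 (adjusted p = 5.63e-04), Itgb6 1.91 ± 0.36 (adjusted p = 2.11e-04), Lamb1 1.09 ± 0.26 (adjusted p = 0.0036) and Tnc -1.27 ± 0.25 (adjusted p = 5.23e-04). The Lamb1 difference was 0.68 without the second E15 cochlea array and 0.90 without the second E12.5 cochlea array, both under the threshold of size. A pseudocount of 64 also put Lamb1 (0.97), Itga4 (0.80) and Itga8 (0.68) under it. The other Itga4 probe sets gave 0.20 and -0.08 here and that of Itgb6 gave 0.19, none called. For Lamb1 the second kept probe set was called (1.17) and the one below the filter was not (0.22). The Tnc difference was -0.58 with a pseudocount of 1 and no longer called.

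No group has more than 2 arrays, so single arrays could not be tested for standing apart from their group.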

How the results depend on the processing

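Of the 76 called changes of members, 38 kept their call under every alternative that tested them. Among the called members, the filter of 16 arrays drops Itga8, Lama4, Lama1, Nid1, Itga4, Itga2 and Nid2. Their calls had no value under that filter and were not scored as lost there. Over all 2662 alternative values, 2581 kept the call, 79 kept the direction but lost it (34 of them with 1 array left out), and 2 changed sign: the Nid1 trend in the cochlea, 0.13 over E12.5 to E15, and Lama4 in the late surroundings against E9, -0.37 without the filter, where another probe set represents the gene. Of 473 alternative counts of called members, 432 were within 1.5 times the main count. The others follow. A pseudocount of 1 gave 2 members called at E9, 3 for the vestibular trend and 5 between saccule and utricle. With a pseudocount of 64, which shrinks low signals, the counts were 0 at E9, 3 at E9.5 to E10.5, 0 for E10 against E9, 0 for the vestibular, 2 for the utricle and 1 for the saccule trend, 1 between cochlea and vestibular organ, 3 between cochlea and saccule, 1 between saccule and utricle and 2 for the trends of cochlea and saccule. With the filter of 16 arrays, which tests fewer genes, they were 0 at E9, 3 at E9.5 to E10.5, 1 for E10 against E9, 3 for the utricle and 1 for the saccule trend, 1 between cochlea and vestibular organ, 1 between saccule and utricle, and 3 each for the trend differences of the cochlea from utricle and saccule. Intensities as deposited gave 4 and the mean of probe sets 2 at E9. Over E11 to E12 the vestibular trend had 0 and cochlea against vestibular organ 1. As deposited, the median change of all genes shifted to 0.32 at E9, 0.33 at E9.5 to E10.5, 0.13 at E11 to E15, -0.22 for the change between them, 0.23 for the cochlear and 0.12 for the vestibular trend and -0.28 between cochlea and vestibular organ, and the changes named above are relative to medians between -0.05 and 0.08.

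Leaving out 1 array at a time gave 1 to 2 members at E9, 4 to 6 at E9.5 to E10.5, 8 to 11 at E11 to E15, 9 to 10 for the change between them, 1 to 2 for E10 against E9, 7 to 9 for the cochlear, 0 to 2 for the vestibular, 3 to 6 for the utricle and 2 to 3 for the saccule trend, 1 to 2 between cochlea and vestibular organ, 3 between cochlea and utricle, 6 to 7 between cochlea and saccule, 2 to 3 between saccule and utricle, 5 to 6 and 4 to 6 for the trend differences from utricle and saccule, and 7 to 9 in the late surroundings against E9. The replicate block changed no count of called members (10 at E11 to E15 and 7 for the cochlear trend in both fits). It used the replicate numbers as given, also at E15, where those of the saccule ran against the other organs.

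Each group rests on 2 pools, and each surrounding group on 2 arrays, so single surrounding arrays carry calls such as those of Itga9 and Itgav. Signals at the floor of 10 have no order, and for Tnc and Itga8 the size of a change depends on the pseudocount (Itga8 in the cochlear trend 3.16 with 1 and 1.08 with 64). Genes with 2 disagreeing probe sets, Lamc1 and Lama4 among them, stay uncertain.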
